A study of Homo sapiens with 10 samples.

Results

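Senescent IMR90 cells that had received an siRNA against METTL3 and a wild type METTL3 knock-in were compared with senescent IMR90 cells that had received a control siRNA, called senescent control here. The comparison asked whether restored METTL3 brings the RNA of senescent cells back to the senescent pattern, and which senescence genes it leaves short of that pattern or carries past it. It used 4 of the 10 samples of the study, 2 per group, chosen by group as the sample titles give it. All genes of the count table were taken, with METTL3 itself left out of the library totals.

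IMR90 is an established line of human fetal lung fibroblasts. RAS, a growth-signalling oncogene, drives such cells into senescence, a stable arrest in which they stop dividing and release cytokines, proteases and growth factors known as the senescence-associated secretory phenotype (SASP). METTL3 is the enzyme that places m6A, a methylated adenosine, on RNA, and METTL14 is its partner. IL1A and IL1B sit near the top of the SASP, where they act through NF-kB on the other cytokines.

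All 4 samples carried the RAS retrovirus. The remaining groups were control cells with an empty retrovirus, senescent cells with the METTL3 siRNA and senescent cells with the siRNA and a mutant METTL3. The titles write knockout where the protocol describes siRNA, and the protocol text names METTL14 and an R298P mutant of it where the titles and the table name METTL3. The knock-in came by lentivirus. The sources used here do not say whether senescent control cells received a lentivirus, so an effect of METTL3 and one of the virus cannot be told apart in this comparison. The siRNA also differs between the groups. Separate cultures are not named for the replicates, and the p-values therefore reflect only how these samples differ, which may be technical.

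The 4 samples held from 16293975 to 22329688 counts. METTL3 stood at 49.5 and 59.9 CPM (counts scaled to a common library total) in senescent control and at 59770 and 60670 CPM in the wild type knock-in. The knock-in level was thus 1101 times the senescent control level, far above a return to it. METTL14 stood at 26.8 and 27.2 CPM in senescent control and at 31.0 and 32.5 CPM in the knock-in, a log2 difference of 0.24 (95% interval -0.07 to 0.54, edgeR adjusted p = 0.213). It was called higher without control sample 1 (adjusted p = 0.0214), without control sample 2 (0.0219) and in a fit of only the samples compared (0.0273). HRAS was lower in the knock-in, at 49.9 and 45.3 CPM against 63.9 and 64.1 CPM, a log2 difference of -0.43 (SE 0.11, adjusted p = 0.00672), and this call was lost without wild type sample 2 (adjusted p = 0.0592). The fibroblast label held, with VIM between 4157 and 5945 CPM in each of the 4 samples. The summed level of 6 fibroblast markers was 9755 and 10480 CPM in senescent control and 7664 and 8333 CPM in the knock-in, with 4 of 6 markers lower (COL1A1, PDGFRB, VIM and THY1; 3 without senescent control sample 1 or wild type sample 2, and 2 without senescent control sample 2 or wild type sample 1). Leukocyte markers summed to between 3.55 and 5.87 CPM, endothelial markers to between 1.15 and 1.85 CPM and epithelial markers to between 28.0 and 34.9 CPM. CD3E and CDH5 had 0 counts. The part of these shifts in the results was not tested.

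Of 16915 genes tested, 3396 (20.1%) were higher and 3329 (19.7%) lower in the wild type knock-in than in senescent control, by an adjusted p under 0.05 in edgeR's quasi-likelihood test. Together they were 6725 genes (39.8%), and these shares are the background for every count of genes called in this comparison with all 10 samples in the fit. They are no background for counts in the siRNA group. Nor are they one for list counts from fits that leave out a sample, since calls over all genes moved in those fits too. The 2 samples of each group did not overlap for 73.8% of genes, called or not. Changes of at least 1 on the log2 scale were less even, with 1242 genes higher (7.34%) and 635 lower (3.75%). The median difference over all genes was 0.02. Fewer genes were called when 1 library was left out: from 2210 (without senescent control sample 2) to 2552 (without wild type sample 2) were higher, and from 2097 (without wild type sample 1) to 2807 (without wild type sample 2) lower. The spread is shared with the control samples, whose replicates differed most. Without either of those, 4244 or 4246 genes were higher and 4312 or 4315 lower.

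Large changes were found both among the genes that senescence had moved and outside them. A senescence gene was defined as one called in senescent control against control with a log2 change of at least 1, which gave 1633 raised genes (9.65% of those tested) and 1109 lowered genes (6.56%). Of the 1242 genes higher by at least 1 in the knock-in, 948 (76.3%) were not senescence genes, and of the 635 lower ones 388 (61.1%) were not. Both shares were below that over all genes tested, 14173 of 16915 (83.8%). Senescence genes raised by RAS made up 199 (31.3%) of those 635.

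Each senescence gene was then placed against its senescent control level. It was called undershot when the knock-in differed by the test in the direction of control cells, overshot when it differed in the direction of senescence, and matched when it was not called and the 95% interval of its log2 difference lay within 0.5 either way. All others were unresolved. Of the 1633 raised genes, 365 (22.4%) were undershot, 236 (14.5%) overshot, 105 (6.43%) matched and 927 (56.8%) unresolved. Of the 1109 lowered genes, 281 (25.3%) were undershot, 142 (12.8%) overshot, 126 (11.4%) matched and 560 (50.5%) unresolved. Senescent control samples enter both the definition of a senescence gene and the comparison, so the shares are a description of these samples. The counts moved when 1 library was left out. That leaves 1 library in its group, so the loss of a replicate and the library itself cannot be told apart. Without senescent control sample 1 or 2, raised overshot genes numbered 146 and 137, and without control sample 2 they numbered 415. Lowered overshot genes numbered 83 without senescent control sample 2 and 88 without wild type sample 1. Matched raised genes numbered 46 to 65 when any of the 4 samples was left out and 218 without control sample 2, and matched lowered genes 74 to 81 when any of the 4 was left out.

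**Figure D1:**
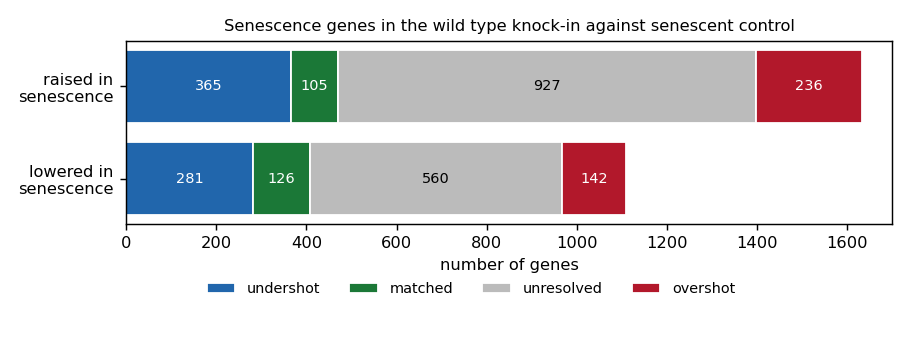
Number of senescence genes (x axis) in each class, for genes raised and genes lowered in senescence. Colours mark undershot, matched, unresolved and overshot genes. Unresolved genes form the longest stretch of both bars, 927 and 560 genes, and undershot genes outnumber overshot ones in both.

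Undershot raised genes stood a median of 1.11 log2 units below senescent control. Of the 365, 211 were still above control cells by the test, 138 were not apart from control and 16 were below control. The same genes had a median of -0.95 in the METTL3 siRNA group against the same senescent control samples. Overshot raised genes stood a median of 1.31 above senescent control, with a median of -0.06 in the siRNA group. Undershot lowered genes stood a median of 1.03 above senescent control, with 156 still below control, 106 not apart from it and 19 above it. Overshot lowered genes had a median log2 difference of -0.83. Both contrasts share the senescent control samples, so these pairs of medians are set side by side only.

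**Figure D2:**
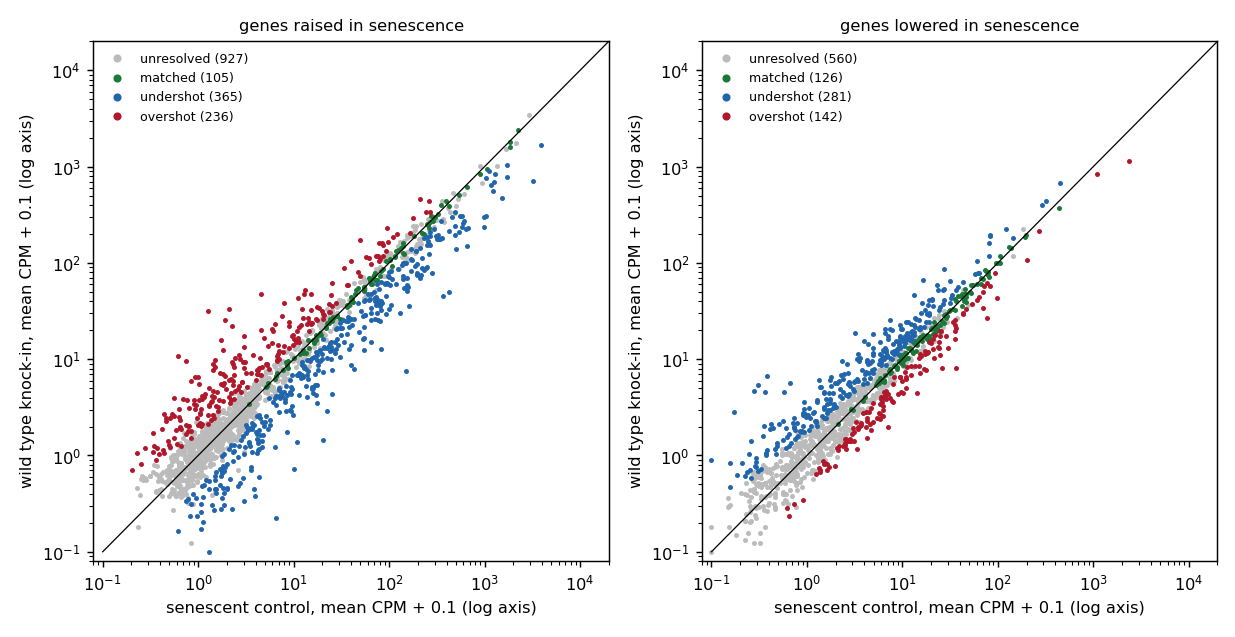
Mean CPM plus 0.1 in senescent control (x axis, log scale) against the wild type knock-in (y axis, log scale), 1 point per senescence gene, with genes raised in senescence on the left and lowered ones on the right. Points on the line are equal in both groups; the 365 undershot raised genes lie below it and the 236 overshot ones above it.

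The SASP cytokines did not move as a block. Of 19 tested, 12 were lower and 4 higher, with a median log2 difference of -1.07. Of the 15 that senescence had raised, 10 were undershot, 3 overshot, none matched and 2 unresolved. IL1B, the alarm cytokine released by inflammasomes, stood at 165.5 and 132.9 CPM in senescent control and at 6.06 and 8.91 CPM in the knock-in. Both knock-in samples lay far below both senescent control samples, by 4.30 on the log2 scale (log2 difference -4.30, SE 0.18, adjusted p = 5.08e-08), and above both samples of the siRNA group, at 3.53 and 4.58 CPM. Control cells held 0.177 and 0.183 CPM, so IL1B remained above control (log2 5.34). IL1A, which acts at the same receptor as IL1B, went the other way. It stood at 24.9 and 24.1 CPM in senescent control and at 44.7 and 48.1 CPM in the knock-in, a log2 difference of 0.92 (SE 0.12, adjusted p = 8.40e-05), against 2.80 and 2.73 CPM in the siRNA group. IL1A was thus overshot while IL1B was undershot.

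CXCL8, which attracts neutrophils, stood at 289.5 and 232.7 CPM in senescent control, 10.96 and 11.06 CPM in the siRNA group and 116.4 and 132.1 CPM in the knock-in. The knock-in samples lay between the other 2 groups, with a log2 difference of -1.07 (SE 0.12, adjusted p = 3.24e-05) from senescent control. IL6, a fever and acute phase cytokine, stood at 13.9 and 13.9 CPM in senescent control and at 5.37 and 6.77 CPM in the knock-in (log2 -1.19, SE 0.17, adjusted p = 0.000166). CSF3, the granulocyte growth factor, had no count in control cells and stood at 10.5 and 9.40 CPM in senescent control. It fell to 0.562 and 0.681 CPM in the knock-in, a log2 difference of -3.97 (SE 0.26, adjusted p = 1.25e-06). CCL2, a monocyte attractant, was no senescence gene by the rule above, with 40.0 and 42.1 CPM in control and 59.8 and 67.4 CPM in senescent control. Its knock-in samples, at 8.12 and 11.2 CPM, were below control cells too (log2 -2.70 from senescent control and -2.07 from control). The cytokines higher beside IL1A were CXCL11, CCL26 and TSLP. CCL26, an eosinophil attractant, rose from 0.632 and 0.764 CPM to 1.81 and 2.04 CPM, and TSLP from 3.85 and 4.11 CPM to 8.12 and 7.40 CPM. CXCL11 stood below 2 CPM in each of the 4 samples (log2 1.18, adjusted p = 0.0333), and its call was lost without senescent control sample 1 (adjusted p = 0.185), senescent control sample 2 (0.0550) or wild type sample 2 (0.210), and in DESeq2 (0.0797).

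**Figure D3:**
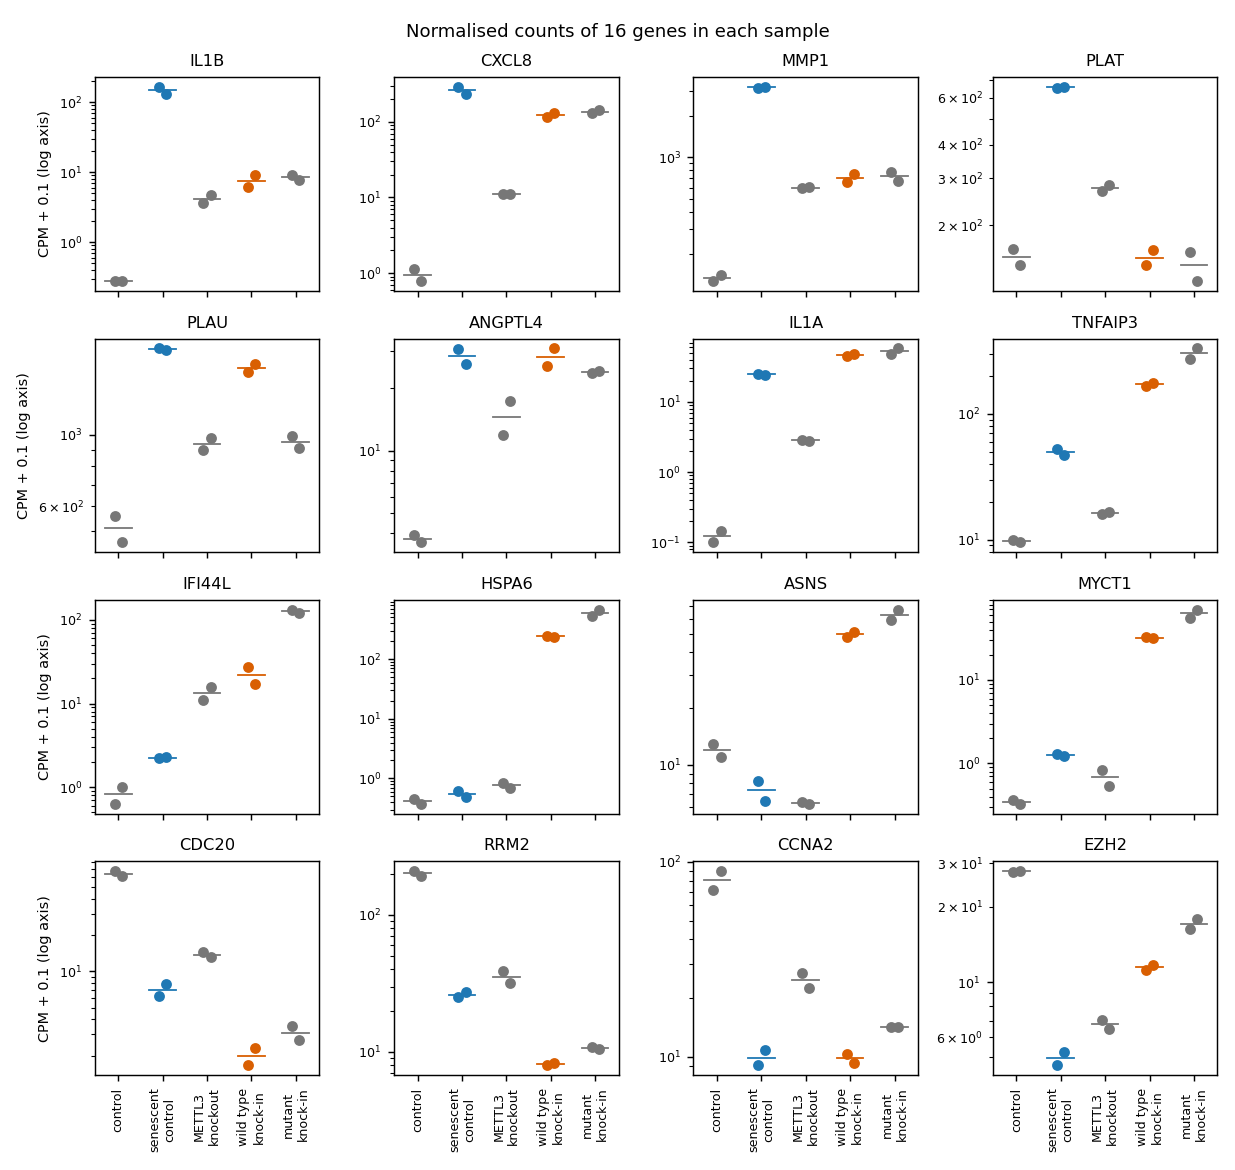
CPM plus 0.1 (y axis, log scale) of 16 genes in each of the 10 samples, with the 5 groups on the x axis; points are samples, lines group means, senescent control is blue and the wild type knock-in orange. IL1B falls from between 132.9 and 165.5 CPM to between 6.06 and 8.91 CPM, while IL1A, TNFAIP3 and HSPA6 lie above senescent control in both knock-in samples.

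Among 17 SASP proteases and their inhibitors, 10 were lower and 2 higher, with a median of -0.44. Of 6 that senescence had raised, 5 were undershot and 1 matched. MMP1, the interstitial collagenase, stood at 3194 and 3231 CPM in senescent control and at 655.0 and 757.2 CPM in the knock-in. The siRNA group stood at 592.5 and 603.3 CPM and control cells at 126.2 and 140.1 CPM, both below the knock-in samples, with a log2 difference of -2.19 from senescent control (SE 0.11, adjusted p = 7.93e-08). MMP3, a stromelysin that activates other matrix proteases, stood at 427.3 and 414.0 CPM against 45.7 and 54.0 CPM (log2 -3.08, SE 0.11, adjusted p = 7.19e-09). Its samples in the siRNA group stood at 45.7 and 45.7 CPM, near the knock-in. The 2 plasminogen activators parted. PLAT, the tissue type, stood at 654.0 and 657.8 CPM in senescent control and at 141.4 and 161.2 CPM in the knock-in, the range of control cells (162.4 and 141.4 CPM), with a log2 difference of -2.12 (SE 0.13, adjusted p = 3.36e-07). PLAT was higher in the siRNA group than in the knock-in, at 268.5 and 283.1 CPM. PLAU, the urokinase type, stood at 1862 and 1841 CPM against 1573 and 1666 CPM, with a log2 difference of -0.19 (95% interval -0.42 to 0.03, adjusted p = 0.160), and was called matched. Its groups did not overlap, and it was called lower in the fits without control sample 1 (adjusted p = 0.0138), without control sample 2 (0.0141), with no filter on low counts (0.0403) or with only the samples compared (0.0150). The inhibitor SERPINE2 (log2 0.88) and the gelatinase MMP2 (log2 0.51) were the higher members.

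SASP growth factors showed 15 lower and 6 higher members of 27, with a median of -0.57. Among 13 raised in senescence, 9 were undershot, 1 overshot, 2 matched and 1 unresolved. EREG, a ligand of the EGF receptor, stood at 524.1 and 490.3 CPM against 138.6 and 137.5 CPM (log2 -1.88, SE 0.11, adjusted p = 3.25e-07). Both knock-in samples were above the siRNA group, at 77.9 and 84.1 CPM. ANGPTL4, a secreted inhibitor of lipoprotein lipase, was matched, with 30.6 and 26.1 CPM against 25.4 and 31.0 CPM and overlapping groups (95% interval of the log2 difference -0.34 to 0.34, adjusted p = 0.994). BMP6, a bone morphogenetic protein, went from 11.9 and 9.64 CPM to 1.19 and 1.36 CPM, a log2 difference of -3.06 (SE 0.24, adjusted p = 2.34e-06). Both knock-in samples of BMP6 were below the siRNA group, at 3.53 and 3.87 CPM.

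NF-kB targets moved in both directions. Of 21 tested, 11 were higher and 7 lower (4 lower without senescent control sample 1), with a median of 0.55, and the 12 raised in senescence held 6 undershot, 5 overshot and 1 matched gene. TNFAIP3, the A20 enzyme that shuts off NF-kB signalling, stood at 52.0 and 46.6 CPM in senescent control and 166.0 and 177.0 CPM in the knock-in (log2 1.80, SE 0.11, adjusted p = 3.66e-07). BIRC3, an inhibitor of apoptosis, went from 12.2 and 13.9 CPM to 54.2 and 51.2 CPM (log2 2.01, SE 0.15, adjusted p = 2.60e-06). TRAF1, an adaptor of TNF receptors, stood between 2.56 and 3.77 CPM in the control, senescent control and siRNA samples, and at 28.0 and 27.8 CPM in the knock-in (log2 3.25, SE 0.15, adjusted p = 4.12e-08). The mutant knock-in samples of TRAF1 stood at 40.1 and 48.5 CPM. CD83, a cell surface protein of activated immune cells, went from 1.84 and 2.01 CPM to 8.37 and 9.98 CPM (log2 2.25).

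Several raised genes outside the SASP lists were undershot too. TRPA1, an irritant-gated ion channel, stood at 362.7 and 365.5 CPM in senescent control and at 40.1 and 49.6 CPM in the knock-in, below control cells at 94.7 and 127.4 CPM (log2 -3.02 from senescent control, SE 0.15, adjusted p = 2.25e-07). Both knock-in samples of TRPA1 also lay below the siRNA group, at 57.7 and 55.7 CPM. FLRT3, a cell surface guidance protein, went from 81.5 and 84.9 CPM to 11.8 and 13.3 CPM, beside 10.3 and 12.8 CPM in control cells. Its siRNA samples were above the knock-in, at 20.8 and 20.4 CPM. LCE1F, a cornified envelope protein of skin, stood at 20.6 and 19.7 CPM against 1.31 and 1.36 CPM (log2 -3.90, SE 0.20, adjusted p = 9.02e-08), and TAGLN3 at 25.6 and 24.6 CPM against 3.81 and 4.72 CPM (log2 -2.54). PEG10, a retrotransposon-derived imprinted gene, was not a senescence gene and fell from 227.6 and 231.0 CPM to 32.7 and 31.3 CPM (log2 -2.84, SE 0.10, adjusted p = 6.50e-09).

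Metallothioneins, RAS-ERK output genes and glycolysis genes had more lower than higher members. The 3 metallothioneins tested were all lower, with a median of -1.76, led by MT2A at 1084 and 991.7 CPM against 277.6 and 333.4 CPM. MT2A and MT1X were undershot to below control cells (log2 -0.65 and -0.54 from control), and MT1E fell by 1.72. Of 17 RAS-ERK output genes, 9 were lower and 0 higher (2 higher without either control sample), with a median of -0.54, and 4 of the 5 that senescence had raised were undershot. DUSP6, a phosphatase that ERK induces against itself, stood at 314.6 and 308.9 CPM against 180.9 and 203.8 CPM (log2 -0.70, SE 0.10, adjusted p = 0.000133). DUSP4, of the same family, stood at 36.5 and 35.0 CPM against 15.3 and 20.8 CPM. HRAS RNA was lower in the same samples, as given above, and its part in these counts was not tested. Of 21 glycolysis enzymes and glucose transporters, 17 were lower and 0 higher (1 higher without either control sample or with upper-quartile scaling), with a median of -0.53. LDHA, which makes lactate, stood at 740.6 and 735.8 CPM against 260.4 and 299.5 CPM (log2 -1.40, SE 0.09, adjusted p = 8.51e-07). HK2, a hexokinase raised in senescence, went from 194.4 and 200.9 CPM to 94.3 and 99.4 CPM and was undershot (log2 -1.03).

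Interferon-stimulated genes were higher in most cases. Of 40 tested, 35 were higher and 0 lower, with a median of 1.87, and of 9 that senescence had raised 8 were overshot. Interferons induce these genes through the ISGF3 factor, which binds the interferon-stimulated response element. It was searched on both strands as 2 GAAA units in the same direction with any 2 bases between them (TTTC units on the other strand). Reference promoters of 31 of the 40 genes were found in the RefSeq table (GRCh38.p14), and 22 held the element within 250 bases before to 50 after the gene start, against 4.38% of the 27305 genes of the table. It was in 20 of the 28 members that were higher and in 2 of the 3 that were not. The sequences of IFI44 (chr1:78649741-78649788, plus strand) and RSAD2 (chr2:6877602-6877671, plus strand) are shown because both genes are in the list and hold it, with the element in capitals, 18 and 145 bases before the start.
IFI44: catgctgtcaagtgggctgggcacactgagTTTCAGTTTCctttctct
RSAD2: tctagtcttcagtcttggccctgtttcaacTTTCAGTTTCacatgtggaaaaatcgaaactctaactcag
A match is a description of the letters and does not show binding.

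IFI44 stood at 1.49 and 2.01 CPM in senescent control and at 19.4 and 13.6 CPM in the knock-in (log2 3.21, SE 0.26, adjusted p = 5.29e-06). Control cells lay at 0.887 and 1.01 CPM, the siRNA group at 4.75 and 7.52 CPM and the mutant knock-in at 45.8 and 43.2 CPM. RSAD2, the antiviral enzyme viperin, went from 0.345 and 0.430 CPM to 4.87 and 2.24 CPM (log2 3.13, SE 0.55, adjusted p = 0.00123). The knock-in samples of RSAD2 were uneven, and both lay above the 2 senescent control samples. IFI44L stood at 2.13 and 2.20 CPM in senescent control and 26.9 and 17.1 CPM in the knock-in (log2 3.33, SE 0.28, adjusted p = 1.28e-05). OAS2, which senses double-stranded RNA, went from 1.38 and 1.86 CPM to 18.4 and 13.1 CPM (log2 3.25, SE 0.32, adjusted p = 3.83e-05). In the siRNA group, against the same senescent control samples, 20 of the 40 genes were higher and 1 lower, with a median of 0.65. These counts have no background, since the shares of all genes called in the siRNA group are not given here. HLA class I antigen presentation genes, which interferons also raise, had 6 of 14 higher and 2 lower (1 lower when any of the 4 samples was left out), and HLA-B stood at 55.8 and 55.0 CPM against 112.2 and 121.7 CPM (log2 1.08).

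**Figure D4:**
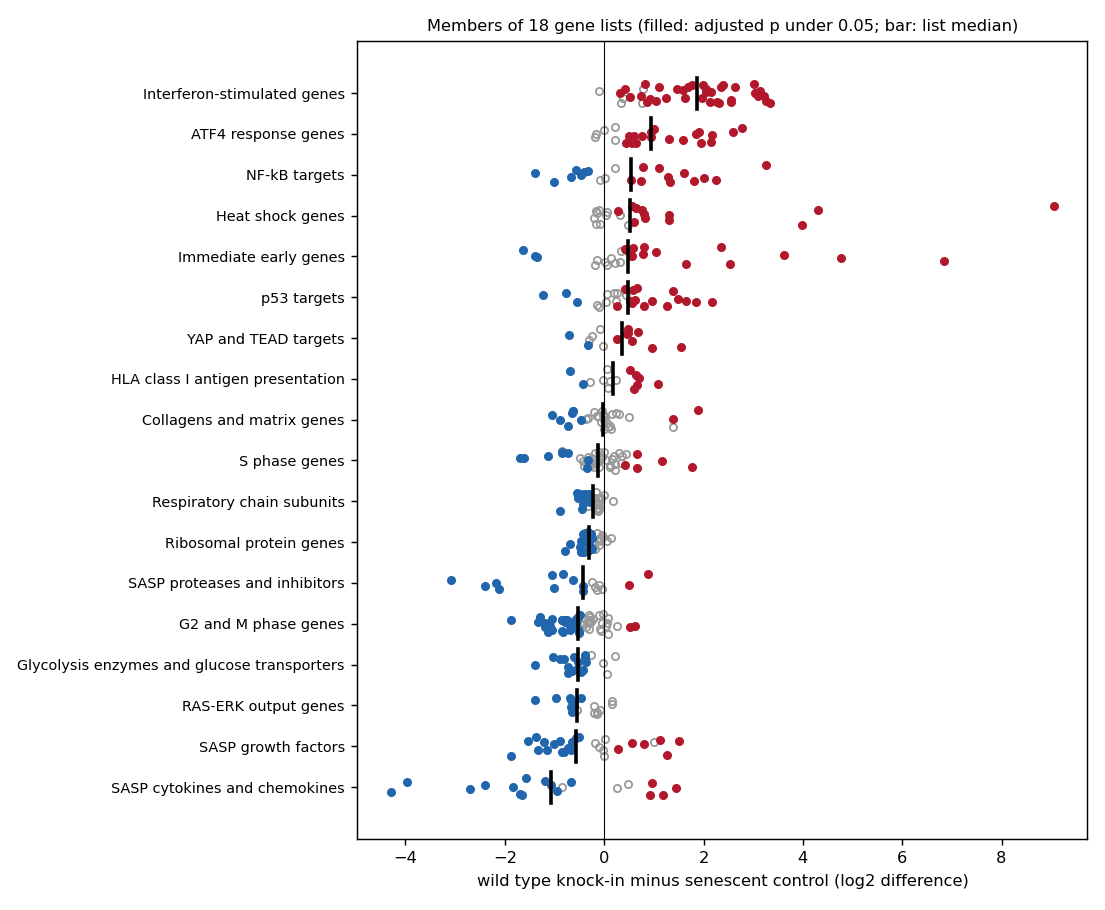
Log2 difference of the wild type knock-in from senescent control (x axis) for each tested member of 18 gene lists (y axis), with red filled points higher and blue filled points lower by an adjusted p under 0.05, open points not called and bars at the list medians. Interferon-stimulated genes have the highest median of the lists drawn, 1.87, and SASP cytokines and chemokines the lowest, -1.07.

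Of 22 heat shock genes, 12 were higher and 0 lower, with a median of 0.52. Without either control sample, 3 were lower. HSF1, the heat shock factor, binds the heat shock element. It was searched on both strands as the units GAA, TTC and GAA, each parted from the next by any 2 bases (TTC, GAA and TTC on the other strand). It was found in 8 of the 20 list members with a reference promoter, against 0.608% of all genes of the table. The element was in 3 of the 11 members that were higher and in 5 of the 9 that were not. The promoter of HSPA6, the gene with the largest rise, holds it 74 bases before the start, in capitals below (chr1:161524436-161524508, plus strand, GRCh38.p14).
HSPA6: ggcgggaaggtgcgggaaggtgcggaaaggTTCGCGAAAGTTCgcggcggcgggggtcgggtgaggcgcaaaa
HSPA6, an inducible HSP70 chaperone, stood at 0.517 and 0.382 CPM in senescent control and at 245.7 and 235.4 CPM in the knock-in, with 0.274 to 0.731 CPM in control cells and the siRNA group. The log2 difference from senescent control was 9.06 (SE 0.20, adjusted p = 7.74e-11). HSPA6 was high in the mutant knock-in samples as well, at 533.6 and 676.6 CPM. HSPA1A went from 61.0 and 61.5 CPM to 1204 and 1211 CPM (log2 4.30, SE 0.12, adjusted p = 4.90e-10) and HSPA1B from 30.4 and 27.5 CPM to 469.9 and 446.3 CPM. These 2 genes are near-identical and how their reads were shared out is not known, so their separate values are uncertain. DNAJB1, an HSP40 partner of HSP70, rose from 183.2 and 184.8 CPM to 455.3 and 453.9 CPM (log2 1.30, SE 0.09, adjusted p = 1.11e-06).

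ATF4 is the factor of the integrated stress response, which cells use when amino acids are short or proteins misfold. Of 23 genes of this response, 18 were higher and 0 lower, with a median of 0.93. Without wild type sample 2 or either control sample, 1 was lower. The amino acid response element was searched as TGATGNAA, or TTNCATCA on the other strand. It was found in 5 of 18 members with a reference promoter, all among the 15 that were higher, against 4.46% of all genes. The ASNS promoter holds it 68 bases before the start (chr7:97872439-97872506, minus strand, GRCh38.p14), in capitals.
ASNS: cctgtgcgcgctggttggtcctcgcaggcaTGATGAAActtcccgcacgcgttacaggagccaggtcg
ASNS, asparagine synthetase, stood at 8.10 and 6.35 CPM in senescent control and at 47.8 and 51.1 CPM in the knock-in (log2 2.78, SE 0.14, adjusted p = 7.93e-08). PSAT1, of serine synthesis, went from 14.1 and 14.5 CPM to 66.0 and 63.9 CPM (log2 2.18), and TRIB3, a pseudokinase, from 14.3 and 13.8 CPM to 59.3 and 65.1 CPM (log2 2.15). NUPR1, a stress-induced chromatin protein, was lowered in senescence, from 11.7 and 10.7 CPM to 2.87 and 3.29 CPM, and stood at 17.9 and 19.5 CPM in the knock-in, above control cells (log2 0.75 from control). Among aminoacyl-tRNA synthetases, some of which ATF4 also raises, 7 of 20 were higher and 6 lower (3 lower without wild type sample 1), led by AARS1 at 61.7 and 66.2 CPM against 199.1 and 205.3 CPM. The ER chaperone list showed 1 higher and 9 lower of 21. The higher member was ERN1, the IRE1 sensor, at 33.5 and 33.5 CPM against 92.8 and 83.7 CPM (log2 1.40). The higher members became 4 without either control sample and 3 with upper-quartile scaling. The 9 lower ones became 3 without senescent control sample 1, 2 without sample 2 and 1 without wild type sample 1.

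Immediate early genes, which cells switch on within minutes of a signal, had 13 of 25 higher and 3 lower, with a median of 0.48. EGR2, a zinc finger factor, stood at 0.747 and 0.477 CPM in senescent control and 14.7 and 18.2 CPM in the knock-in (log2 4.77, SE 0.29, adjusted p = 3.54e-07). EGR4, of the same family, had 0 counts in senescent control and 28 in the knock-in, at least 9.79-fold higher when 3 counts over the group are taken as the floor. ATF3, a stress-induced factor, went from 6.09 and 4.15 CPM to 56.4 and 68.8 CPM (log2 3.63, SE 0.17, adjusted p = 8.67e-08), and KLF4 from 4.996 and 4.87 CPM to 25.2 and 31.9 CPM (log2 2.54). The 3 lower members were NR4A2, IER3 and EGR3, each raised in senescence and undershot. NR4A2, a nuclear receptor, stood at 15.6 and 15.7 CPM against 5.12 and 5.01 CPM, and IER3 at 210.0 and 184.9 CPM against 65.6 and 85.1 CPM. EGR3 (log2 -1.34, adjusted p = 0.0241) was no longer called without senescent control sample 2 (adjusted p = 0.179), wild type sample 1 (0.113) or wild type sample 2 (0.0739), nor by DESeq2 (adjusted p = 0.116).

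Genes of the antioxidant factor NRF2 divided evenly, with 5 of 14 higher and 5 lower. HMOX1, which breaks down heme, went from 19.5 and 19.95 CPM to 170.6 and 210.7 CPM (log2 3.27, SE 0.12, adjusted p = 9.47e-09). NQO1, a quinone reductase, went from 188.1 and 178.7 CPM to 88.8 and 93.9 CPM (log2 -1.01, SE 0.09, adjusted p = 8.98e-06). The p53 targets had 15 of 26 higher and 3 lower, with a median of 0.48. GADD45A, a growth arrest gene that ATF4 also raises, stood at 27.6 and 27.5 CPM against 112.5 and 136.4 CPM (log2 2.18), and SESN2, also counted in the ATF4 list, at 36.1 and 35.4 CPM against 126.6 and 132.2 CPM (log2 1.86). The lower members were ZMAT3 (log2 -1.22), CCNG1 (-0.78) and TNFRSF10B (-0.55). CDKN1A, the p21 inhibitor through which p53 stops division, stood at 980.0 and 966.9 CPM against 854.4 and 946.6 CPM, with a log2 difference of -0.11 (95% interval -0.33 to 0.10, adjusted p = 0.404). CDKN2A, whose gene encodes p16, was lower, at 58.3 and 61.8 CPM against 40.0 and 45.5 CPM (log2 -0.49, SE 0.09, adjusted p = 0.00143).

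Cell division genes, which senescence lowers, were mostly not brought back toward control. Of 55 G2 and M phase genes, 28 were lower and 2 higher than in senescent control, with a median of -0.53. Among the 51 that senescence had lowered, 27 were overshot, 2 undershot, 7 matched and 15 unresolved. CDC20, an activator of the anaphase-promoting complex, stood at 67.7 and 61.4 CPM in control, 6.09 and 7.78 CPM in senescent control and 1.56 and 2.19 CPM in the knock-in (log2 -1.87, SE 0.21, adjusted p = 2.89e-05). The siRNA group stood above senescent control, at 14.3 and 12.9 CPM, and 48 of the 55 genes were higher there against the same senescent control samples. The share of all genes higher in the siRNA group is not given here, so that count has no background. UBE2C, the ubiquitin-conjugating enzyme of that complex, stood at 5.63 and 6.73 CPM against 2.31 and 2.58 CPM (log2 -1.33). DEPDC1 went from 12.2 and 16.1 CPM to 4.997 and 3.65 CPM (log2 -1.73, SE 0.28, adjusted p = 0.000813). DLGAP5, a spindle protein, differed by -1.30 (adjusted p = 0.00806), and this call was lost without wild type sample 1 (adjusted p = 0.0635). The 2 higher genes were the kinesins KIF18A (log2 0.62) and KIF20B (log2 0.52). KIF20B (adjusted p = 0.0112) was no longer called without senescent control sample 1 (0.0842), wild type sample 1 (0.0610) or wild type sample 2 (0.0671).

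S phase genes differed less. Neither direction was called more often in this list than over all genes, where 19.7% were lower and 20.1% higher. Of 44 tested, 8 were lower (5 without senescent control sample 1) and 5 higher (3 without senescent control sample 2 or wild type sample 1), with a median of -0.13, and among 40 lowered in senescence 10 were matched, 6 overshot, 5 undershot and 19 unresolved. RRM2, a subunit of ribonucleotide reductase, stood at 25.0 and 27.1 CPM in senescent control and at 7.87 and 8.18 CPM in the knock-in (log2 -1.70, SE 0.12, adjusted p = 1.26e-06). CHAF1B, a histone chaperone of replication, went the other way, from 2.35 and 2.77 CPM to 10.3 and 7.30 CPM (log2 1.76, SE 0.21, adjusted p = 4.45e-05), and POLA1, the primase-bound polymerase, from 5.28 and 4.44 CPM to 11.3 and 10.5 CPM (log2 1.17). The other higher members were FEN1 (log2 0.67), MCM2 (0.66) and MCM6 (0.42). MCM2 (adjusted p = 0.00651) was not called without senescent control sample 2 (0.0738) or wild type sample 1 (0.0502), and MCM6 (adjusted p = 0.013) not without senescent control sample 1 (0.0587), senescent control sample 2 (0.1003) or wild type sample 1 (0.0729), nor by DESeq2 (0.0505). CCNA2, the S and M phase cyclin, was matched, with 8.96 and 10.7 CPM against 10.2 and 9.20 CPM (95% interval of the log2 difference -0.36 to 0.31), far below control cells at 71.9 and 89.7 CPM. TYMS, thymidylate synthase, was matched as well, with 10.5 and 10.6 CPM against 10.4 and 9.30 CPM, as were the mitotic genes BUB1B, at 6.83 and 7.78 CPM against 6.87 and 7.25 CPM, and SPAG5, at 9.53 and 7.78 CPM against 8.68 and 7.84 CPM.

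LMNB1, a lamina protein whose loss marks senescence, stood at 3.10 and 2.82 CPM in senescent control and at 2.37 and 2.39 CPM in the knock-in, against 64.4 and 56.4 CPM in control cells. The log2 difference of -0.31 was not called and its interval, -0.75 to 0.13, left it unresolved. EZH2, the enzyme that writes the repressive H3K27 methyl mark, was undershot, at 27.5 and 27.8 CPM in control, 4.54 and 5.16 CPM in senescent control and 11.1 and 11.6 CPM in the knock-in (log2 1.23, SE 0.13, adjusted p = 2.07e-05). CDKN2C, an inhibitor of CDK4 and CDK6, was undershot too, at 0.574 and 0.525 CPM against 1.75 and 1.41 CPM. Its control level was 13.3 and 12.3 CPM, so the knock-in covered a small part of that distance.

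Among the other lowered genes that were undershot, some passed the control level. EVI2A stood at 1.06 and 1.46 CPM in control, 0.287 and 0.286 CPM in senescent control and 5.62 and 7.54 CPM in the knock-in (log2 4.50, SE 0.35, adjusted p = 2.34e-06). IRS2, an adaptor of the insulin receptor, stood at 42.5 and 32.0, 16.4 and 16.1, and 62.7 and 69.3 CPM in the same order (log2 2.02, SE 0.15). BACH2, a repressor of transcription, stood at 6.12 and 4.96 CPM against 0.574 and 0.573 CPM in senescent control (log2 3.25). Lowered genes carried further down included IGFBP3, a carrier of insulin-like growth factors, at 63.3 and 89.9 CPM against 22.9 and 30.03 CPM (log2 -1.53, SE 0.18, adjusted p = 8.66e-05), and THY1, a fibroblast surface marker, at 190.9 and 210.0 CPM against 98.9 and 113.5 CPM (log2 -0.92). FST, follistatin, was matched with a narrow interval, at 65.0 and 69.7 CPM against 66.4 and 71.6 CPM (-0.16 to 0.23 on the log2 scale), while control cells held 506.5 and 496.3 CPM.

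The raised genes that overshot most were chosen by log2 rise, with at least 5 CPM needed in 1 group. MYCT1, PURPL, ALOXE3, TTN and SUGCT-AS1 met that minimum through the knock-in only. Their low level in senescent control follows from this choice and is no result about overshot genes. MYCT1, a MYC target gene, stood at 1.21 and 1.15 CPM in senescent control and at 32.2 and 31.4 CPM in the knock-in (log2 4.75, SE 0.18, adjusted p = 9.47e-09). It stood at 0.731 CPM or less in control cells and the siRNA group, and at 55.8 and 69.5 CPM in the mutant knock-in. PURPL, a long noncoding RNA that p53 induces, went from 1.49 and 2.10 CPM to 27.7 and 23.0 CPM (log2 3.79), ALOXE3, a lipoxygenase of skin, from 0.402 and 0.907 CPM to 9.56 and 9.49 CPM (log2 3.81), and TTN, the muscle protein titin, from 4.13 and 4.77 CPM to 52.7 and 43.3 CPM (log2 3.42). SUGCT-AS1 went from 2.13 and 1.91 CPM to 33.9 and 32.5 CPM (log2 4.04). It is an antisense gene, and since the strand setting of the counting is not known its reads cannot be told apart from those of its partner. Raised genes that were matched included SEMA6D, a semaphorin, at 180.3 and 183.2 CPM against 185.2 and 198.8 CPM (95% interval -0.17 to 0.33), IL1RAPL1 at 25.0 and 22.1 CPM against 23.98 and 24.4 CPM (-0.25 to 0.34), and TCIM at 14.9 and 13.8 CPM against 11.5 and 14.5 CPM (-0.50 to 0.23). PRDM1, a repressor of transcription, was matched at 49.0 and 46.0 CPM against 56.7 and 53.4 CPM, with groups that did not overlap and an interval from 0.02 to 0.41. It was called higher without control sample 1 (adjusted p = 0.0240), without control sample 2 (0.0236), with upper-quartile scaling (0.0386), with a minimum count of 50 (0.0438) and with only the samples compared (0.0279).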

How the data were processed

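RNA was extracted with the RNeasy kit, treated with DNase I and made into KAPA RNA HyperPrep libraries, per the labels' protocols. The authors deposited 1 table of whole-number counts per Ensembl gene for the 10 samples. Bowtie2 and RSEM 1.2.12 were used with the build hg19, per the submitters' processing notes, so the counts may be rounded RSEM estimates. The annotation, strand setting, handling of multiply mapped reads and filters are not named. Reads of antisense, overlapping or near-identical genes therefore cannot be assigned with certainty.

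The counts were analysed with edgeR 4.0.16 in R 4.3.3. METTL3 was left out of totals and tests. Genes were kept by filterByExpr (minimum count 10; 16915 of 57736), scaled by TMM, and fitted with 1 coefficient per group to all 10 samples (5 residual degrees of freedom). The test was the quasi-likelihood F test (two-sided), and p-values were adjusted by Benjamini-Hochberg over all genes tested. SEs and 95% intervals were computed from the log2 difference and its F statistic, so they rest on a spread shared by all samples. The median biological coefficient of variation was 9.33%. The test was also run on counts simulated with the spread estimated in this fit, so that run cannot check the spread itself. CPM values are counts divided by TMM-scaled library totals. Symbols came from a gene symbol table, then GENCODE release 29. No molecular identifiers are named, and floors cover counting error only. With 2 samples per group, most levels are given as the value of each sample in place of a mean. For some genes only the log2 difference is given.

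The comparison, the 36 gene lists and the classes were chosen with earlier results of these data known. The genes named were the 12 largest rises and falls and the 8 largest in each undershot or overshot class. Those had an adjusted p under 0.05, groups that did not overlap and at least 5 CPM in 1 group. Also named were the 8 matched genes with the largest senescence change in each direction and up to 4 members of each list with the largest difference. A fixed set was added (METTL3, HRAS, IL1A, IL1B, IL6, CXCL8, MMP1, MMP3, CCL2, LMNB1, CDKN1A and CDKN2A). Matched genes, list members and the fixed set did not need to meet these conditions. METTL14, NR4A2, KIF18A, KIF20B, CXCL11, CCL26, TSLP, MMP2, SERPINE2, EGR3, ZMAT3, TNFRSF10B, CCNG1, MCM2, MCM6 and FEN1 were named after their values were seen, as was the choice of promoters printed. Over all genes tested, 73.8% had groups that did not overlap. Alternatives were DESeq2 1.42.0, other scalings and filters, the replicate block, other class thresholds and leaving out each sample; leaving out a control sample was added after the data were seen. The mutant knock-in was used only in the shared fit, in plots and for its sample values of TRAF1, IFI44, HSPA6 and MYCT1.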

Additional observations from a re-analysis of the deposited data

How the results depend on the processing

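No gene called in the comparison turned to a call in the other direction under any of the alternatives run. DESeq2's Wald test called 2711 genes higher and 2827 lower, upper-quartile scaling 3861 and 2838, and a fit of only the samples compared 3871 and 4292. The replicate numbers did not pair the samples: deviations of senescent control and wild type samples of the same number correlated at 0.044. With the replicate block 3316 genes were higher and 3267 lower. Leaving out 1 library gave 2210 to 4246 genes higher and 2097 to 4315 lower. Among genes raised in senescence it gave 137 to 415 overshot, 46 to 218 matched and 570 to 1113 unresolved. Among lowered genes it gave 83 to 204 overshot and 74 to 150 matched. With no filter on low counts 160 raised genes were matched, and with a minimum count of 50, 471 raised and 328 lowered genes were unresolved. With no fold threshold for senescence genes, raised genes held 972 undershot, 597 overshot and 706 matched, and lowered genes 932 undershot, 805 overshot, 1137 matched and 958 unresolved. With a threshold of 2 the counts were 141, 83, 8 and 303 for raised genes (undershot, overshot, matched, unresolved) and 70, 67, 19 and 183 for lowered genes. With a matching margin of 1, 501 raised and 382 lowered genes were matched, and 531 and 304 unresolved. The cause of these moves was not tested, beyond the widths of the classes, which the thresholds and the margin set.

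Among the genes tracked by name, those whose sign changed were genes called matched, with log2 differences near 0; other genes were not tracked by sign. ANGPTL4 was 0.0016 with DESeq2 size factors, 0.0575 with upper-quartile scaling, 0.0185 with a minimum count of 50 and 0.0143 with METTL3 kept in the totals. With upper-quartile scaling CCNA2 was 0.038 and BUB1B 0.0103, and FST was -0.0037 without a filter. Leaving out 1 library gave -0.174 to 0.13 for ANGPTL4, -0.215 to 0.0766 for SPAG5, -0.0373 to 0.0852 for FST, -0.147 to 0.11 for CCNA2, -0.143 to 0.0457 for BUB1B, -0.0521 to 0.13 for IL1RAPL1 and -0.331 to 0.0139 for TCIM. Of 2 samples per group no further split could be made, and genes near 1 CPM have wide intervals at this depth.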

Other observations

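Genes of translation, respiration and protein turnover differed by small amounts in the wild type knock-in. List counts from fits without a sample have no background here, since calls over all genes also fell or rose in those fits. Of 40 ribosomal protein genes 26 were lower and 0 higher than in senescent control, with a median log2 difference of -0.31, but without senescent control sample 1 only 7 were lower, without senescent control sample 2 16, and without wild type sample 1 only 6. RPL7A, the member with the largest difference, stood at 322.5 and 331.8 CPM against 175.6 and 204.4 CPM (log2 -0.78). Of 30 respiratory chain subunits 13 were lower and 0 higher (median -0.23), with 7, 8 and 6 lower in the same 3 fits. Of 14 targets of YAP and TEAD, which respond to cell shape, 8 were higher and 2 lower (4 lower without either control sample, 1 without senescent control sample 2 or wild type sample 1), with 4 higher without senescent control sample 1 and 5 without wild type sample 2. ANKRD1, one of them, stood at 7.06 and 5.78 CPM in senescent control and at 16.7 and 20.7 CPM in the knock-in. Among 30 collagens and matrix genes 7 were lower (4 without senescent control sample 1 or 2 or wild type sample 1) and 2 higher (4 without senescent control sample 2 and 5 without either control sample). With all samples in the fit, the share lower was near that over all genes (19.7%) and the share higher was below it (20.1%). The higher 2 were LUM, the proteoglycan lumican, at 19.5 and 22.8 CPM against 79.6 and 76.6 CPM (log2 1.88), and POSTN, periostin, at 38.4 and 41.7 CPM against 98.4 and 109.9 CPM (log2 1.38). In the m6A machinery 5 of 17 genes were higher and 1 lower (0 lower when any of the 4 samples compared was left out), and 10 or 11 were higher without control sample 1 or 2. The largest difference among them was that of YTHDC1, a nuclear reader of m6A, at 66.7 and 64.1 CPM against 145.5 and 135.2 CPM (log2 1.10).

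The other lists had both directions or small medians. Of 28 lysosome and autophagy genes 9 were higher and 0 lower (median 0.05; 2 lower without either control sample, and a median of -0.0042 without wild type sample 2), of 21 cholesterol synthesis genes 2 were higher (1 without either senescent control sample or wild type sample 2) and 10 lower (median -0.24), and of 30 proteasome subunits 1 was higher and 10 lower (median -0.19). The higher one was lost when any of the 4 samples compared was left out. The 10 lower proteasome subunits became 3 without senescent control sample 1, 4 without senescent control sample 2, 3 without wild type sample 1 and 17 without either control sample. Of 15 nuclear lamina and heterochromatin genes 1, EZH2, was higher and 8 lower (median -0.32). Of 13 smooth muscle contractile genes 1 was higher and 4 lower (median -0.25), and 9 were lower without either control sample. The 13 replication-dependent histone genes, which are near-identical and uncertain in their separate values, held 5 higher and 2 lower members (median -0.17). That median was 0.17 without senescent control sample 2 and 0.02 without wild type sample 1.

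Several of the largest rises were of genes near or below 1 CPM in senescent control. IL20RB, PCLO and LONRF2 met the minimum of 5 CPM in 1 group through the knock-in only. Their low level in senescent control thus follows from how the genes were chosen. IL20RB, a cytokine receptor chain, stood at 0.402 and 0.525 CPM in senescent control and at 11.6 and 9.73 CPM in the knock-in. PCLO, a presynaptic protein, went from 0.459 and 0.334 CPM to 6.37 and 5.94 CPM, and LONRF2 from 0.172 and 0.239 CPM to 6.31 and 4.33 CPM. The knock-in samples had more genes with at least 1 count, 24270 and 24501, than the senescent control samples, 22705 and 22844. Of 780 lincRNA genes tested 16.2% were higher and 7.31% lower, against 21.4% and 22.6% of 13394 protein-coding genes. The median log2 difference was 0.26 for lincRNA and -0.0084 for protein-coding genes, so fewer calls do not mean smaller differences. The part of count level in these shares was not tested.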
